A study of Mus musculus with 48 samples.

Results

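The cells described here are neurons of the mouse embryonic hypothalamus that carried transcripts of the dopamine pathway. A cell was counted as a dopaminergic (DA) neuron when it held at least 1 unique molecular identifier (UMI, the tag of a single captured transcript) of *Th*, at least 1 UMI of a partner gene (*Ddc*, *Slc6a3* or *Slc18a2*), and at least 3 of the 6 neuronal genes *Stmn2*, *Tubb3*, *Snap25*, *Syt1*, *Elavl4* and *Rbfox3*. The rule selected 165 of 14121 cells, 123 from control and 42 from *Eed-cKO*, and the reference was the 10957 other neurons, which passed the neuronal criterion only.

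Single-cell RNA sequencing was done on hypothalamus dissected from mouse embryos at E18.5, on the ddSEQ droplet platform with 3′ chemistry. Control embryos were *Eed fl/fl* without Cre, and *Eed-cKO* embryos were *Eed fl/fl; Sox1-Cre* on the same mixed B6:129S1 background, so that both groups carried the floxed allele. *Eed* encodes a core subunit of the Polycomb repressive complex PRC2, which lays down the repressive mark H3K27me3, and *Sox1-Cre* removes the floxed exons in the early central nervous system. Presence of Cre and loss of *Eed* cannot be told apart in this design. The 22 control libraries came from 6 embryos of 4 litters and the 26 *Eed-cKO* libraries from 9 embryos of 6 litters. The litter was read from the library name, and no litter held both genotypes. Both sexes were present in each genotype. Among embryos used below to test single genes, control embryos were male except F4520_E2 and F4650_E1, and *Eed-cKO* embryos were female except F0589_E1.

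*Th* catalyses the rate-limiting step of dopamine synthesis, the conversion of tyrosine to L-DOPA, and *Ddc* converts L-DOPA to dopamine. *Slc18a2* (VMAT2) loads the amine into vesicles, and *Slc6a3* (the dopamine transporter, DAT) takes it back up from outside the cell. In the hypothalamus, tuberoinfundibular DA neurons of the arcuate region release dopamine that inhibits prolactin secretion, and other groups lie in the periventricular zone and the zona incerta. Hypothalamic DA neurons are often GABAergic and depend on factors such as *Dlx1* and *Dlx2*, whereas midbrain DA neurons form under *Foxa1*, *Foxa2*, *Lmx1a*, *En1*, *En2* and *Pitx3*. In mm10 (annotation GENCODE vM21, whole gene) *Th* lies at chr7:142892752-142931128 on the minus strand, *Ddc* at chr11:11814101-11898144 on the minus strand, *Slc6a3* at chr13:73536747-73578672 on the plus strand and *Slc18a2* at chr19:59260896-59296012 on the plus strand.

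The embryos yielded 5363119 to 7487417 UMIs in control and 658175 to 6299181 in *Eed-cKO*, with 792 to 1371 and 151 to 882 neurons. DA neurons were deeper than other neurons, with a median of 6966 against 5183 UMIs per cell in control and 8546 against 4827.5 in *Eed-cKO*. A control library of embryo F4650_E2 stood apart with 1207 cells, of which 27 were DA neurons. Cell barcodes occurring in more than 1 library numbered 101, and 5 of the DA neurons had such a barcode. Scrublet, with the highest 6% of scores marked in each library, marked 9.76% of control DA neurons against 7.06% of other neurons, and 14.3% against 7.35% in *Eed-cKO*. The 3′ tag of *Eed* lies outside the deleted exons and so is no check of the deletion. Per 1000000 summed UMIs, *Eed* stood at 30.8 in DA and 30.2 in other neurons of control, and at 12.8 and 23.2 in *Eed-cKO*. The 12.8 rests on 5 UMIs in 42 cells, and the 23.2 on 668 UMIs.

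DA neurons made up a smaller share of neurons in *Eed-cKO* than in control. In control the lowest share was 1.07% of an embryo's neurons and the highest was 3.06%, with 10 to 42 DA neurons per embryo. In *Eed-cKO* the lowest share was 0.113% and the highest was 1.32%, with 1 to 8 DA neurons per embryo. The ranges met, since the lowest control embryo lay below 3 of the 9 *Eed-cKO* embryos. The mean was 2.00% ± 0.668 (SD, n = 6) in control and 0.870% ± 0.360 (SD, n = 9) in *Eed-cKO*, a difference of −1.13 percentage points (two-sided exact permutation test over embryos, p = 0.0016, smallest possible 0.0004). Without the library with most cells the control mean was 2.20% (exact permutation p = 0.0016). With litters as samples the means were 1.93% (n = 4) and 0.832% (n = 6, exact permutation p = 0.0286, smallest possible 0.0095). A share counts cells in which transcripts were caught, so fewer DA neurons cannot be told apart from less *Th* or partner RNA per cell.

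**Figure D1:**
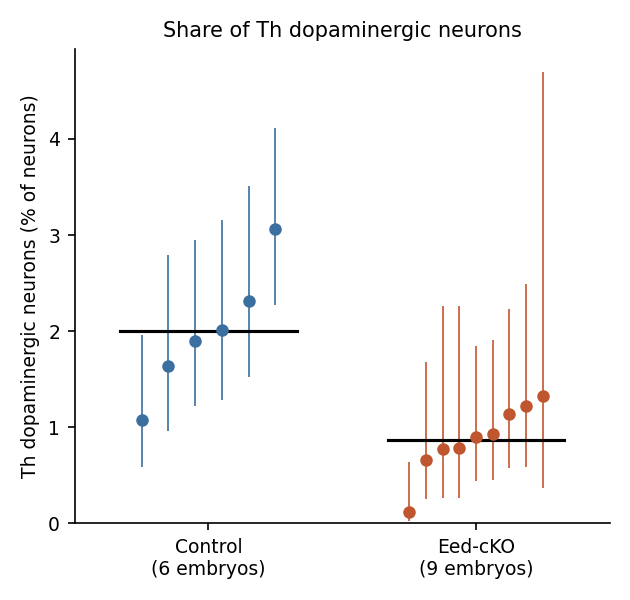
Share of neurons that were DA neurons in each embryo (y axis, percent; x axis, embryos grouped by genotype), with the 95% Wilson interval for counting error as bars and the group mean as a line. The control points span 1.07% to 3.06%, and those of *Eed-cKO* span 0.113% to 1.32%.

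The lower share held at fixed depth. After each neuron was thinned to 2000 UMIs, with shallower neurons left out (657 other neurons and 2 DA neurons in control, 517 and 0 in *Eed-cKO*), the share was 1.11% in control and 0.139% in *Eed-cKO* (exact permutation p = 0.0004, the smallest possible). Among non-neural cells *Th* was found in 0 of 257 control cells, which allows a share of up to 1.17%, and in 0.233% of *Eed-cKO* cells. *Ddc* was different, since 10.5% of non-neural control cells held it, more than the 8.55% of other neurons in control, at medians of 3803 and 5183 UMIs. In *Eed-cKO* 5.13% of non-neural cells and 6.04% of other neurons held it. The share of other control neurons with *Ddc* was thus not above that of non-neural cells. Whether non-neural cells express *Ddc* or held free RNA was not tested. Non-neural cells of either genotype held at most 5 UMIs of it. Of DA neurons with *Ddc* as the sole partner, 2 of the 32 in control and 3 of the 20 in *Eed-cKO* held more (up to 26 and 11). When *Ddc* was not counted as a partner, 91 control and 22 *Eed-cKO* cells stayed and the mean shares were 1.51% and 0.494% (exact permutation p = 0.0004). *Th* was seen in 11.2% of control neurons that held a partner gene and in 2.98% of those that did not, compared with 5.59% and 2.57% in *Eed-cKO*.

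The values that chose the cells are given as a description, per 1000000 UMIs of the summed DA neurons of an embryo, for the 6 control embryos and for the 4 *Eed-cKO* embryos with at least 5 DA neurons. *Th* was 273 at the lowest, 602 at the median and 770 at the highest in control, compared with 201 to 465 in *Eed-cKO*. *Ddc* was 250 to 565 (median 372) in control and 28.7 to 634 (median 221) in *Eed-cKO*. *Slc18a2* was 269 to 692 (median 360) in control and 32.1 to 163 (median 52.8) in *Eed-cKO*, ranges that did not overlap. The widest gap was that of *Slc6a3*, which was 125 to 980 (median 459) in every control embryo but 0 in 3 of the 4 *Eed-cKO* embryos and 16.03 in embryo F0582_E7. Embryo F0652_E8, with 4 DA neurons and so not among these, was at 515, inside the control range, from 25 UMIs in a single cell. *Slc6a3* was found in 23 of 123 control DA neurons (18.7%), with up to 91 UMIs in a cell, and in 2 of 42 *Eed-cKO* DA neurons.

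Most DA neurons sat close to the threshold. In control 40 cells had 1 UMI of *Th*, 43 had 2 to 4, 28 had 5 to 9 and 12 had 10 or more, up to 45. In *Eed-cKO* 20 had 1 UMI, 15 had 2 to 4, 7 had 5 to 9 and none had 10 or more. Just outside the rule lay 143 control and 115 *Eed-cKO* neurons with *Th* and no partner, with at most 15 and 6 UMIs of *Th*, and 978 and 710 neurons with a partner and no *Th*. Only 2 control cells and 1 *Eed-cKO* cell had *Th* and a partner but fewer than 3 neuronal genes. By partner, control DA neurons fell into 36 with *Slc18a2* alone, 32 with *Ddc* alone, 32 with both of these, and 18 with all partner genes. The last set had the most *Th*, with a median of 8.5 UMIs against 2 to 3 in the other sets named. In *Eed-cKO* 20 cells had *Ddc* alone, 13 had *Slc18a2* alone, 7 had both and 1 had all partner genes.

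Control DA neurons could be split into a set with factors of midbrain DA neurons and a larger, mixed set. Most cells of the larger set held *Dlx1*, and most held a GABA gene. The split, made after the values were seen and given without a test, was at 2 or more of the 6 midbrain factors *Pitx3*, *En1*, *En2*, *Foxa1*, *Foxa2* and *Lmx1a*. It set apart 24 of 123 control DA neurons (19.5%), found in all 6 embryos (1 to 9 cells each) and in 15 libraries, and 2 of 42 *Eed-cKO* DA neurons (4.76%). Among other neurons 223 in control (3.86%) and 356 in *Eed-cKO* (6.87%) held 2 or more of these factors. These 24 cells included 19 of the 23 control cells with *Slc6a3*, and their median *Th* was 7 UMIs against 2 in the remaining 99. *Dlx1* was found in 1 of the 24 (4.2%) and in 69 of the 99 (69.7%), and *Slc32a1* (the vesicular GABA transporter) or *Gad1* in 9 (37.5%) and 77 (77.8%). Some of the 99 held *Slc17a6*, a vesicular glutamate transporter gene, with no UMI of *Dlx1*, *Slc32a1* or *Gad1*. In *Eed-cKO* the 40 cells with fewer than 2 factors held *Dlx1* in 55.0% and *Slc32a1* or *Gad1* in 80.0%. Whether the midbrain-factor cells came from tissue at the border of the dissection, and whether their number in *Eed-cKO* DA neurons follows the genotype or the cut, cannot be told apart here.

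**Figure D2:**
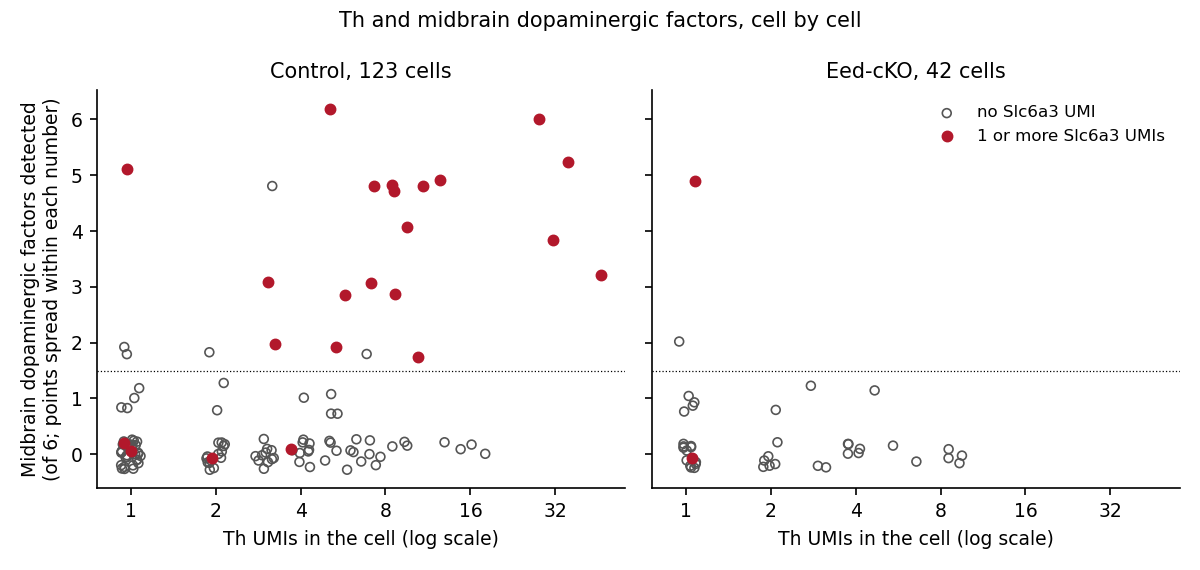
Each point is a DA neuron, with UMIs of *Th* on a logarithmic x axis and the number of the 6 midbrain factors detected on the y axis. Separate panels show the 123 control and the 42 *Eed-cKO* cells. Filled points held *Slc6a3*, and the dotted line marks the split at 2 factors: 24 control cells and 2 *Eed-cKO* cells lie above it.

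Genes that did not make the split followed it. *Aldh1a1*, which marks a ventral class of midbrain DA neurons, was in 16 of the 24 midbrain-factor cells and in 1 of the 99 others. *Slc10a4*, a vesicular transporter relative of aminergic and cholinergic neurons, was in 20 of 24 and 15 of 99, and *Nr4a2* (Nurr1), a nuclear receptor needed for midbrain DA identity, in 20 of 24 and 8 of 99. *Chrna6* and *Chrnb3*, nicotinic receptor subunits of DA terminals, were in 16 and 12 of the 24 and in 0 and 1 of the 99. By contrast *Isl1* was in 0 of 24 and 45 of 99, *Gad2* in 4 and 57, and the peptide gene *Pnoc* in 3 and 42. *Ghrh*, the growth hormone-releasing peptide made by arcuate neurons, was in 0 of 24 and 14 of 99, and *Prlr*, the prolactin receptor that reports prolactin back to tuberoinfundibular neurons, in 1 and 19. The midbrain-factor cells were deeper, at a median of 9860 UMIs against 6614, and the part of depth in these counts was not tested.

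**Figure D3:**
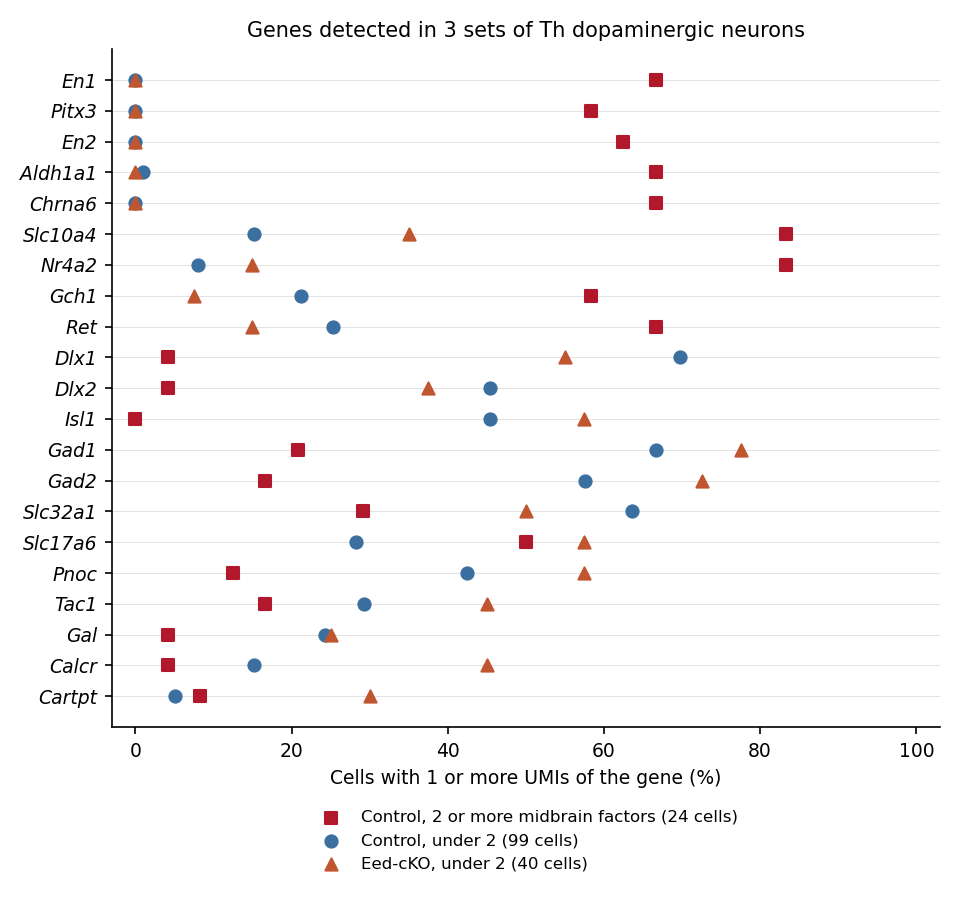
Percent of cells with at least 1 UMI of each of 21 genes (x axis) in control DA neurons with 2 or more midbrain factors (24 cells), control DA neurons with fewer (99 cells) and *Eed-cKO* DA neurons with fewer (40 cells). *En1*, *En2* and *Pitx3* chose the first set. *Chrna6* was found in 16, 0 and 0 cells and *Dlx1* in 1, 69 and 22 cells of the 3 sets.

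To ask which genes set DA neurons apart, counts were summed per embryo over DA neurons and over other neurons, for the 6 control and the 4 *Eed-cKO* embryos with at least 5 DA neurons, and 9265 genes were tested with edgeR's quasi-likelihood test with the embryo as block and Benjamini-Hochberg adjustment at 0.05. The 10 genes of the rule were left out. In control 137 genes passed (1.48% of those tested), 91 higher (0.982%) and 46 lower (0.496%) in DA neurons. Without the control library with most cells 109 genes passed in control. Levels of single genes below are UMIs per 1000000 (CPM) with totals scaled by the TMM method, and fold changes are log2 differences between DA and other neurons with their standard error.

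Of 10 tested genes of dopamine synthesis and handling, 6 rose in control DA neurons and none fell, with a median log2 change of 0.79 against −0.0065 over all genes tested. *Gch1* makes the tetrahydrobiopterin cofactor that *Th* requires. It was 25.7 CPM at the lowest, 69.8 at the median and 200.02 at the highest in control DA neurons, above all control sums of other neurons (4.99 to 8.11), and rose by 3.51 ± 0.40 (adjusted p = 1.17e-14). *Slc10a4* was 41.8 to 309 CPM against 16.5 to 18.4 and rose by 3.02 ± 0.25 (adjusted p = 2.79e-25). *Aldh1a1* (chr19:20492715-20643465, plus strand, overlapped by the annotated gene *C730002L08Rik*) gave the largest change, 10.31 ± 0.40 (adjusted p = 1.32e-04), with 100.01 to 4832 CPM against 0.227 to 2.03. Its 1481 UMIs came from 17 of the 123 cells, with 21.3% of them in a single cell. *Sncg* rose by 2.13 ± 0.42, and *Pcbd1*, which regenerates the cofactor, by 0.64 ± 0.19. The call of *Sncg* was lost without embryo F4690_E3 (adjusted p = 0.0758) and that of *Pcbd1* was lost in 8 of 10 fits that left out an embryo (adjusted p up to 0.256).

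The midbrain factors rose as well, 5 of 6 tested, with a median of 3.99. *En1* (chr1:120602418-120607992, plus strand), a homeobox gene that keeps midbrain DA neurons alive, was 9.28 CPM at the lowest, 165 at the median and 300.03 at the highest in control DA neurons and 0 to 4.87 in other neurons (log2 change 6.89 ± 0.46, adjusted p = 6.88e-27). *Pitx3*, a direct activator of *Th* in the midbrain, was 18.6 to 71.4 CPM against 0 to 0.68, and overlapping *Elovl3* makes its count uncertain. *En2*, *Foxa2* and *Foxa1* rose by 5.17 ± 0.58, 2.82 ± 0.51 and 1.62 ± 0.24, while *Lmx1a* stood at 0.03 ± 0.33. These values describe the mixture, since the 24 midbrain-factor cells are among the summed cells.

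Among transcription factors of hypothalamic DA neurons, 5 of 19 rose and 2 fell, with a median of 0.71. *Dlx1*, a homeobox factor of forebrain GABAergic neurons, was 232 at the lowest, 347 at the median and 494 at the highest CPM in control DA neurons, above all other-neuron sums (146 to 200), and rose by 1.03 ± 0.13 (adjusted p = 1.35e-11). Its count is uncertain where *Dlx1as* overlaps. *Dlx2* and *Pbx3* rose by 0.96 ± 0.22 and 1.18 ± 0.22. Leaving out an embryo ended the call of *Dlx2* for 1 embryo (F4650_E1, adjusted p = 0.0671) and of *Pbx3* for 3 (up to 0.148). *Sim1*, a factor of paraventricular and supraoptic neurons, fell by 1.62 and *Nkx2-1*, a factor of the ventral hypothalamus, by 0.85, and each lost its call in leave-one-out fits (*Sim1* without F4650_E2, adjusted p = 0.0686, and *Nkx2-1* in 3 fits, up to 0.136).

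Transmitter genes split. *Slc32a1* rose by 0.68 ± 0.16 (83.3 to 259 CPM against 78.8 to 128, adjusted p = 0.005), and *Slc17a6*, the vesicular glutamate transporter VGLUT2, fell by 1.48 ± 0.20 (33.8 to 283 CPM against 337 to 429, with no overlap, adjusted p = 1.32e-04). *Slc32a1* lost its call without F4650_E1 or F4650_E2 (adjusted p up to 0.0823). *Gad1* and *Gad2*, which make GABA, were at 0.19 ± 0.22 and 0.54 ± 0.16 and did not pass. Of 12 receptor genes, the growth factor receptor gene *Ret* (2.26 ± 0.27) and *Oprk1*, the kappa opioid receptor (1.52 ± 0.38), rose, and *Oprk1* lost its call without F4520_E2 or F4650_E1 (adjusted p up to 0.21). Of 20 neuropeptide genes none rose (3 at an unadjusted p under 0.05, 0 by DESeq2 and 1 by limma-voom) and *Penk* fell by 1.63 ± 0.40, a call lost without F4690_E3 (adjusted p = 0.141). *Ghrh* (1.99 ± 0.84) and *Gal* (1.62 ± 0.66) did not pass, with *Ghrh* between 0 and 541 CPM in DA neurons of the 6 embryos.

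Outside these lists, the nicotinic subunit gene *Chrna6*, the guidance gene *Ntn1* and *Klhl1* rose by 4.86 ± 0.53, 2.17 ± 0.24 and 1.83 ± 0.21. *Scg2*, a granin of secretory vesicles, rose by 0.83 ± 0.10 (850 to 1476 CPM against 479 to 621). Of 12 genes of immature neurons 3 fell, and of 26 genes of excitability and synapse 1 fell. Of 11 immediate early genes only *Fosb* passed (1.22), but all 11 were positive, with a median of 0.50 and 6 at an unadjusted p under 0.05. Of 9 PRC2 genes 0 passed by edgeR, DESeq2 or limma-voom (1 lower at an unadjusted p under 0.05). Among the deepest falls were those of transcription factors of other neuron classes. *Zic4* was 0 to 56.4 CPM in DA neurons and 93.3 to 297 in other neurons (−3.23 ± 0.31), *Zic2* changed by −2.50 ± 0.33, *Shox2* by −4.11 ± 0.92 and *Nr2f2* by −1.88 ± 0.29. *Npnt*, an extracellular matrix gene, changed by −2.06 ± 0.46. The annotation places *Zic1* over *Zic4*, *Rsrc1* over *Shox2* and *B130024G19Rik* over *Nr2f2*, so reads of these genes are uncertain, and the call of *Nr2f2* was lost without F4530_E2 or F4650_E1 (adjusted p up to 0.0638).

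Without the 24 midbrain-factor cells, an alternative chosen after seeing the data, 8629 genes were tested and 74 passed in control (43 higher and 31 lower). Of the 91 genes called higher, 73 were still tested and 26 were still called. *Gch1* (2.51), *Sncg* (2.42), *Ret* (1.46), *Pcbd1* (0.79), *Dlx1* (1.503), *Dlx2* (1.43) and *Slc32a1* (0.93) stayed higher. *Gad2* (0.89), *Gad1* (0.62), *Pnoc* (1.00), *Crhbp* (2.17), *Prlr* (1.53) and *Esr1* (2.08) passed in this set, and of these only *Crhbp* had passed with all members. *Klhl1* (0.06), *Ntn1* (0.29), *Slc10a4* (0.62) and *Pbx3* (0.30) did not pass, and *Aldh1a1*, *En1*, *En2*, *Pitx3*, *Foxa1*, *Foxa2* and *Chrna6* had too few UMIs to be tested. Of the 46 genes called lower, 43 were still tested and 18 were still called, *Zic4* (−2.99) and *Cacna2d1* (−1.05) among them. *Slc17a6* (−1.58, adjusted p = 0.146), *Nr2f2* (−1.67), *Sim1* (−1.21), *Nkx2-1* (−0.46) and *Npnt* (−1.77) did not pass.

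In *Eed-cKO* 39 of the 9265 genes passed between DA and other neurons (0.421%), 20 higher (0.216%) and 19 lower (0.205%), or 51.3% higher, over 29 DA neurons of 4 embryos. The genotypes differ in the number of embryos and cells, so counts of calls cannot be read against each other. The higher genes were 70.0% of 50 calls with DESeq2's size factors and 64.3% of 42 by library size alone. Of the 91 genes higher in control, 48 had the same sign in *Eed-cKO*, 5 were called there too, and 10 had no UMI in *Eed-cKO* DA neurons. Their median log2 change was 1.09 in control, where it chose them, and 0.08 in *Eed-cKO*. Of the 46 genes lower in control, 40 had the same sign in *Eed-cKO* and 12 were called, with medians of −0.90 and −0.67.

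**Figure D4:**
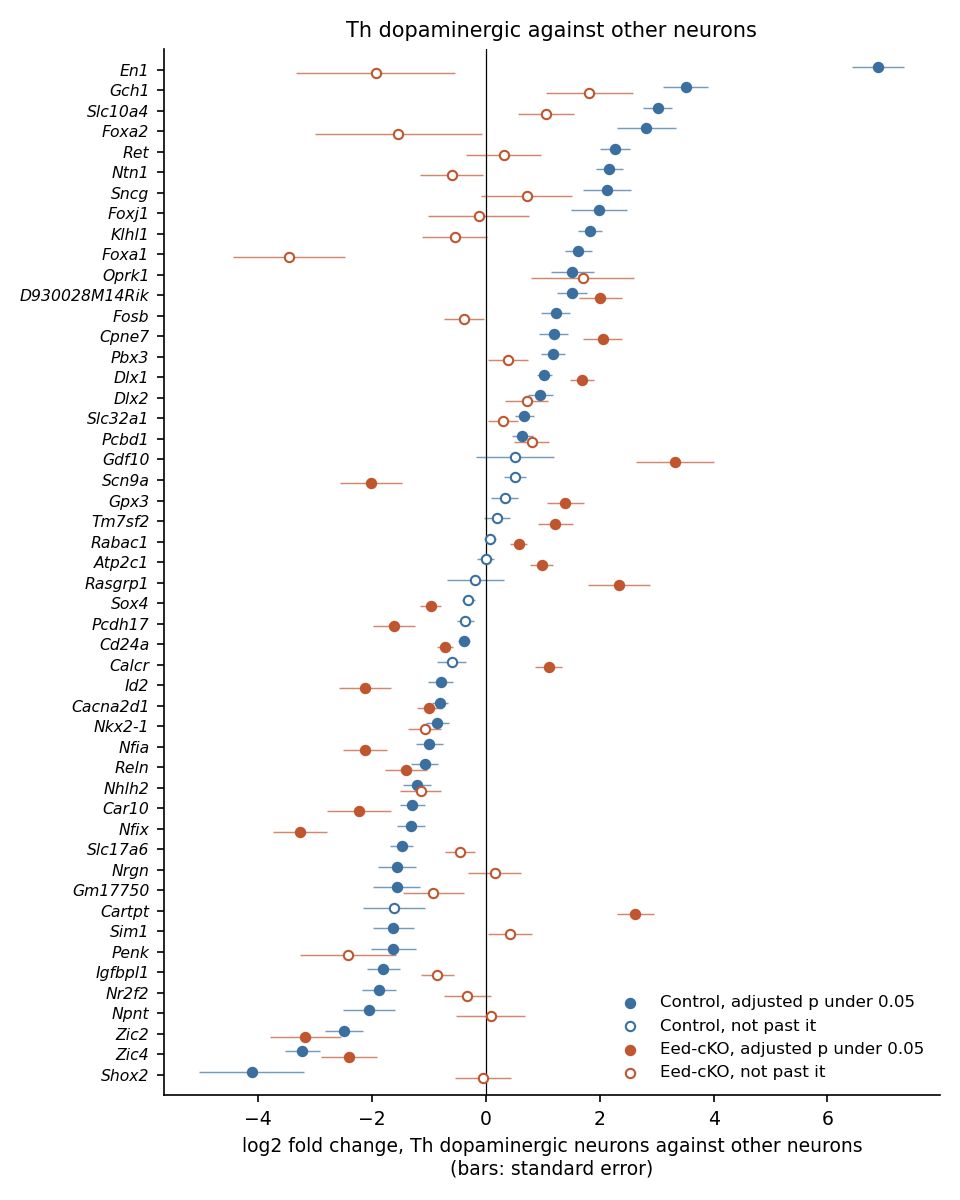
Log2 change between DA and other neurons with its standard error (x axis) for named genes (y axis) in control and in *Eed-cKO*, filled where the adjusted p was under 0.05. Genes with no UMI on a side are not shown. *Dlx1* is filled in both genotypes (1.03 and 1.69), and *Slc10a4* (3.02 and 1.06) only in control.

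What stayed in *Eed-cKO* DA neurons was led by *Dlx1*. Its level was 390, 297, 307 and 207 CPM in embryos F0582_E7, F0588_E7, F0589_E1 and F0652_E5, above the 75.2 to 124 CPM of other neurons, a log2 change of 1.69 ± 0.21 (adjusted p = 2.92e-11). This call held in every leave-one-out fit, and the difference from the control change was 0.66 ± 0.23 (adjusted p = 0.416). *Resp18*, a gene of endocrine secretory vesicles, rose in both genotypes (0.48 ± 0.11 and 0.61 ± 0.15), as did *Cpne4* and *Cpne7*, copines that bind membranes with calcium, and the transcript *D930028M14Rik*, which overlaps *Pou2f2* (1.52 ± 0.27 and 2.01 ± 0.37). *Cpne7* changed by 1.19 ± 0.25 in control and 2.05 ± 0.34 in *Eed-cKO*, the latter call lost without F0588_E7 (adjusted p = 0.0849).

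The genes lower in DA neurons of both genotypes were *Cd24a*, *Car10*, *Id2*, *Enc1*, *Zic2*, *Rbfox1*, *Nfia*, *Cacna2d1*, *Reln*, *Nfix*, *Zfhx3* and *Zic4*. *Nfix* and *Nfia*, nuclear factor I genes that act late in neural differentiation and in glia, changed by −1.31 ± 0.25 and −0.99 ± 0.24 in control and by −3.26 ± 0.47 and −2.13 ± 0.39 in *Eed-cKO*. *Nfix* stood at 15.6, 28.7, 0 and 17.3 CPM in the 4 *Eed-cKO* embryos against 150 to 182 in other neurons, with no overlap. *Lyl1* overlaps *Nfix* and *E130114P18Rik* overlaps *Nfia*. *Zic4* (−2.40 ± 0.48) and *Zic2* (−3.17 ± 0.62) lost their calls in 4 and 2 leave-one-out fits in *Eed-cKO* (adjusted p up to 0.197 and 0.0833). *Id2* (−2.12 ± 0.46), an inhibitor of differentiation, lost its call in 3 (up to 0.0818). In *Eed-cKO* the calls were also lost for *Reln* in 7 leave-one-out fits (up to 0.337), for *Cd24a* in 5 (up to 0.216) and for *Car10* and *Cacna2d1* in 3 each (up to 0.193 and 0.217). In control *Cd24a* lost its call in 7 (up to 0.314).

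The dopamine list did not pass in *Eed-cKO*. None of its 10 tested genes was called by edgeR's quasi-likelihood test, 3 were higher and 0 lower at an unadjusted p under 0.05, and DESeq2 and limma-voom called 0. The median change was 0.12, or 0.45 with *Aldh1a1* at its bound, against −0.076 over all genes. *Pcbd1* was 0, 220, 80.7 and 155 CPM in the 4 embryos against 64.0 to 83.9 in other neurons (0.81 ± 0.31, adjusted p = 0.331). *Gch1* was 46.8, 0, 16.1 and 69.1 CPM in the 4 *Eed-cKO* embryos against 5.40 to 9.48 in other neurons (1.82 ± 0.76, adjusted p = 0.435). *Slc10a4* was 31.2, 57.5, 80.7 and 51.8 CPM, above the 21.4 to 29.4 of other neurons in each embryo (1.06 ± 0.49, adjusted p = 0.522). The difference between the genotypes was called for *Slc10a4* (−1.96 ± 0.49, adjusted p = 0.0372), a call lost in 8 leave-one-out fits (up to 0.206). It was not for *Gch1* (−1.70 ± 0.73, adjusted p = 0.592). *Dlx2* (0.72 ± 0.38) and *Slc32a1* (0.30 ± 0.27) did not pass in *Eed-cKO*, and their differences from control were −0.24 ± 0.42 and −0.38 ± 0.31. *Slc17a6* was 172, 345, 194 and 345 CPM in *Eed-cKO*, where its change was −0.46 ± 0.26 (adjusted p = 0.693) and its difference from control 1.02 ± 0.35 (adjusted p = 0.466).

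A test of the difference itself, DA against other neurons in *Eed-cKO* less the same in control, called 17 genes (0.183%), 6 positive (0.0648%) and 11 negative (0.119%). *En1* differed by −8.83 ± 0.96 (adjusted p = 5.67e-12). Its level in *Eed-cKO* DA neurons was 0, 0, 16.1 and 0 CPM, and in other *Eed-cKO* neurons 11.7 to 14.6, above the 0 to 4.87 of other control neurons. *Foxa1* was 0, 0, 16.1 and 0 CPM in *Eed-cKO* and differed by −5.09 ± 0.87 (adjusted p = 1.89e-05). *En2* had 40 UMIs in control DA neurons and none in the 4 *Eed-cKO* embryos of the fit. The difference was at least 29.0-fold, with 3 UMIs over the group as the floor (adjusted p = 2.82e-05). These values leave out embryo F0652_E8, which had a DA neuron with 5 of the 6 midbrain factors. Of the midbrain list 3 of 6 were called. *Ntn1* (−2.77 ± 0.53), *Klhl1* (−2.37 ± 0.54), *Klhl13* (−1.18 ± 0.26), *Plcxd3* and the ion-channel regulator *Fgf13* (−1.61 ± 0.26) were negative as well. The difference lost its call in 3 leave-one-out fits for *Klhl1* (adjusted p up to 0.182) and in 2 each for *Klhl13* (up to 0.209) and *Plcxd3* (up to 0.124).

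Positive differences were those of *Cartpt*, *Calcr* and *Cnr1* among the genes named. *Calcr*, the calcitonin receptor (chr6:3685680-3764714, minus strand), was 11.3 at the lowest, 41.7 at the median and 71.4 at the highest CPM in control DA neurons. In *Eed-cKO* DA neurons it was 234, 259, 178 and 311 CPM, above every control value and above the 86.4 to 142 CPM of other *Eed-cKO* neurons. It rose over other neurons by 1.10 ± 0.24 in *Eed-cKO* (adjusted p = 0.00308) and stood at −0.60 ± 0.25 in control, a difference of 1.71 ± 0.34 (adjusted p = 0.00117). The rise within *Eed-cKO* lost its call without F0582_E7, F0588_E7 or F0652_E5 (adjusted p up to 0.117), while the difference kept it in each leave-one-out fit. *Calcr* was found in 19 of 42 *Eed-cKO* DA neurons (45.2%) and in 16 of 123 in control (13.01%).

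*Cartpt*, which encodes the CART peptide (chr13:99898489-99901091, minus strand), was 0 to 23.8 CPM in control DA neurons and 203, 594, 484 and 0 in *Eed-cKO*, so that embryo F0652_E5 had none. It rose by 2.62 ± 0.33 in *Eed-cKO* (adjusted p = 3.45e-07), with a difference of 4.23 ± 0.58 (adjusted p = 6.71e-06). Its UMIs in the fit came from 8 cells, 55.2% of them from a single cell. Over all DA neurons *Cartpt* was found in 31.0% in *Eed-cKO* and 5.7% in control, compared with 12.6% and 4.7% of other neurons. *Cnr1*, the cannabinoid receptor CB1, was lower than in other neurons in control (82.4 to 169 CPM against 193 to 257) and 203, 201, 194 and 173 CPM in *Eed-cKO* against 135 to 180. Its difference of 1.198 ± 0.28 (adjusted p = 0.0159) lost its call in 5 leave-one-out fits (up to 0.12).

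Further genes rose over other neurons in *Eed-cKO*. *Gdf10*, a secreted factor of the BMP family, was 78.1, 57.5, 64.6 and 17.3 CPM against 1.16 to 7.90 in other neurons (3.32 ± 0.69, adjusted p = 0.00127), and the call was lost without F0582_E7 (adjusted p = 0.121). *Rasgrp1* changed by 2.33 ± 0.54, lost in 3 leave-one-out fits (up to 0.123). *Sox4*, a factor of immature neurons, fell by 0.97 and lost its call without F0582_E7 (adjusted p = 0.107). *Scn9a*, a voltage-gated sodium channel gene with overlapping *Gm13629*, was 0, 9.58, 16.1 and 51.8 CPM in *Eed-cKO* DA neurons against 62.4 to 86.2 in other neurons. The *Eed-cKO* values of *Scn9a* rest on 5 UMIs in 4 DA neurons, against 111 UMIs in 59 DA neurons of control. Its change of −2.02 ± 0.54 in *Eed-cKO* and its difference of −2.53 ± 0.56 lost their calls in 8 and 3 leave-one-out fits (up to 0.269 and 0.124).

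Compared directly, *Eed-cKO* against control DA neurons, 32 genes passed (0.345%), 9 higher (0.0971%) and 23 lower (0.248%), with a median of −0.108 over all genes. The higher genes were 28.1% of these calls, 38.5% of 26 with DESeq2's size factors and 37.9% of 29 by library size alone. *Calcr* rose by 2.49 ± 0.34 (adjusted p = 4.48e-07). *Hddc3*, a nucleotide hydrolase gene overlapped by *Man2a2*, rose by 3.0 ± 0.49 (adjusted p = 2.05e-05), from 5.88 to 35.7 CPM in control to 125, 86.2, 242 and 86.4 in *Eed-cKO*. Other neurons showed the same step for *Hddc3*, from 10.5 to 18.6 CPM up to 105 to 125, and its difference was 0.27 ± 0.52 (adjusted p = 0.972). The ribosomal gene *Rps13* changed by −1.54 ± 0.23 in DA neurons and stood at 507 to 627 CPM in control against 232 to 270 in *Eed-cKO* among other neurons. All 11 tested immediate early genes were positive between *Eed-cKO* and control DA neurons, with a median of 0.45, and 0 passed. As a difference in DA against other neurons, 2 of these 11 were positive, with a median of −0.56.

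Lower in *Eed-cKO* DA neurons were *Fgf13*, from 248 to 777 CPM in control to 125, 115, 129 and 104 (−2.04 ± 0.28, adjusted p = 2.54e-06), and *Scg2* (−1.36 ± 0.20). *Foxa1* changed by −4.64 ± 0.78 (adjusted p = 6.93e-05), and *Klhl13* by −1.27 ± 0.27. *Ret* (−2.21 ± 0.52) lost its call in 6 leave-one-out fits (up to 0.253), *Klhl1* (−2.54 ± 0.49) without F0588_E7 (adjusted p = 0.0633), *Cadps2* (−2.79 ± 0.59) without F0589_E1 (adjusted p = 0.0659) and *Scn9a* (−2.71 ± 0.56) without F0588_E7 or F0589_E1 (up to 0.0824). The 67 control UMIs of *Chrna6* stood against 0 in *Eed-cKO* DA neurons, which made it at least 6.24-fold lower (adjusted p = 0.00288), and *En2* was at least 3.73-fold lower (adjusted p = 0.0336), lost in 7 leave-one-out fits (up to 0.19). With the embryos of a litter summed, which took in embryos with fewer than 5 DA neurons, *Calcr*, *Hddc3*, *Fgf13*, *Foxa1* and *Chrna6* kept their calls. Those of *Cadps2* (adjusted p = 0.0762), *Scn9a* (0.29), *Klhl1* (0.339), *Ret* (0.433) and *En2* (0.804) were lost. In these sums the change of *En2* was −1.10, against −5.48 in the main fit, and that of *Foxa1* was −2.55.

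**Figure D5:**
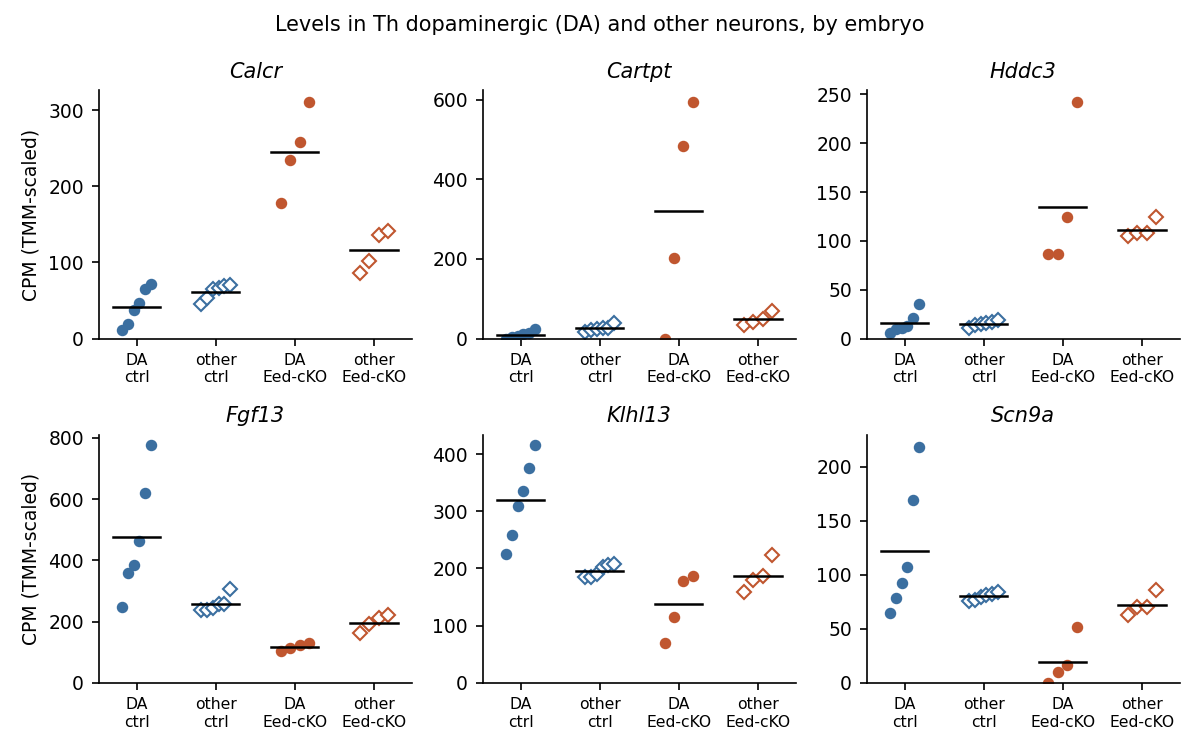
CPM (TMM-scaled, y axis) of *Calcr*, *Cartpt*, *Hddc3*, *Fgf13*, *Klhl13* and *Scn9a* in the DA and other neurons of each embryo (points) by genotype (x axis), with the mean as a line. *Calcr* in *Eed-cKO* DA neurons (178 to 311) lay above control DA neurons (11.3 to 71.4), and *Fgf13* (104 to 129) below them (248 to 777).

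These differences between genotypes moved with the midbrain-factor cells for some genes and not for others. Without them 7 genes passed between *Eed-cKO* and control DA neurons and 2 passed as a difference between genotypes. *Calcr* (2.11), *Hddc3* (3.04), *Crym* (4.62, a gene of the astrocyte and tanycyte list), *Rps13* (−1.46), *Arl6ip1* (−1.39), *Scg2* (−1.38) and *Scn9a* (−2.79) were called between the genotypes, and *Cartpt* (4.12) and *Scn9a* (−2.61) as differences. *Scn9a* was near the floor, with 5 UMIs in the *Eed-cKO* DA neurons of the main fit. *Fgf13* (−0.71, adjusted p = 0.78) did not pass, and the difference of *Calcr* was 1.33 (adjusted p = 0.22).

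Hox genes, which PRC2 keeps silent in the forebrain, were found in 0 of 123 control DA neurons, which allows a share of up to 2.44%. In *Eed-cKO* 14 of 42 DA neurons (33.3%) held a Hox UMI, with 2 of 7, 1 of 8, 5 of 7 and 2 of 7 cells in embryos F0582_E7, F0588_E7, F0589_E1 and F0652_E5. Among other *Eed-cKO* neurons 2447 of 5182 (47.2%) did, at a lower median depth. Summed over cells, Hox UMIs were 100.03 CPM in DA and 491 CPM in other neurons of *Eed-cKO*, a difference given without a test, since no Hox gene had enough UMIs in the DA sums. Of the 34 Hox genes in the table, 20 were seen in an *Eed-cKO* DA neuron, none of them in more than 5 cells. *Vax2*, a ventral eye and forebrain homeobox gene, was in 9 of 42 *Eed-cKO* DA neurons (21.4%) and 12.9% of other *Eed-cKO* neurons, and in no control neuron.

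Transcripts of both *Slc17a6* and *Slc32a1* were found in 16 of 123 control DA neurons (13.01%, 95% Wilson interval 8.17 to 20.1) and 10 of 42 in *Eed-cKO* (23.8%, 13.5 to 38.5). Over embryos the share was 12.0% ± 6.38 (SD, n = 6) and 25% ± 31.7 (SD, n = 4), and the difference of 13.02 points was smaller than the spread (exact permutation p = 0.562, smallest possible 0.0095). It turned to −2.45 points (exact permutation p = 0.619) without embryo F0589_E1, where 71.4% of the DA neurons held both. Among other neurons the share was 4.78% and 22.96% (exact permutation p = 0.00952, the smallest possible). Pooled over cells and without a test, DA neurons with *Slc32a1* alone were 43.9% in control but 28.6% in *Eed-cKO*. Those with *Slc17a6* alone were 19.5% and 33.3%. Among other neurons, pooled in the same way, *Slc32a1* alone was lower in *Eed-cKO* too (23.3% in control and 11.8%). *Slc17a6* alone was 44.2% and 41.3% of other neurons.

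Summed markers of other cell types in DA neurons varied between embryos and lists. Per 1000000 UMIs, the 15 non-neural genes summed to 6.41 to 528 (median 42.1) in control DA neurons and 15.5 to 102 (median 61.6) in other control neurons. They summed to 0 to 37.3 in *Eed-cKO* DA neurons. In control DA neurons 12 of the 15 had a UMI, the microglial gene *Csf1r* among them, while the microglial genes *C1qa*, *C1qb* and *Cx3cr1* were at 0. All 4 tested non-neural genes were positive against other neurons in control, with a median log2 change of 2.95 against −0.0065 over all genes. Of these, edgeR and DESeq2 called 0 and limma-voom called 3. The 14 astrocyte, tanycyte and ependymal genes summed to 64.1 to 777 in control and 0 to 1243 in *Eed-cKO* DA neurons, against 158 to 481 and 298 to 998 in other neurons. Their median in DA neurons was 108 in control, below the 238 of other neurons, and 469 in *Eed-cKO*, near the 515 of other neurons. *Foxj1*, the ciliary factor of ependymal cells, passed in control DA neurons (1.99), with 54.9% of its UMIs in a single cell. Between *Eed-cKO* and control DA neurons 6 of the 7 tested genes of this list were positive, with a median of 0.57 against −0.108 over all genes, and 1 passed. It was *Crym* (4.99 ± 0.96, adjusted p = 0.00144), a call lost without F4650_E2 (adjusted p = 0.0773) and with litters as samples (adjusted p = 0.0759). Of 13 genes of noradrenergic, serotonergic and histaminergic neurons 3 had any UMI in control DA neurons, summing to 0 to 96.2 per 1000000 UMIs (median 6.95). In *Eed-cKO* DA neurons 7 of the 13 had a UMI, summing to 18.7 to 49.7 (median 39.95). The median of this list in other neurons was 23.1 in control and 93.9 in *Eed-cKO*. The part of these cell types in the results was not tested.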

How the data were processed

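The deposited table, a genes-by-cells matrix of raw UMI counts that the authors made without normalization, came from libraries made with the SureCell WTA 3′ kit on ddSEQ. Reads were aligned to mm10, and the submitters' processing notes name STAR 2.5.2b and SAMtools 1.3. The authors kept cells with 600 or more UMIs, 300 or more genes and a ratio of UMIs to detected genes of 1.2 or more. Of the cells deposited, 0 fell short of these limits. Whether counting used strand is not given in the sources used here.

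Libraries of an embryo were pooled, the embryo being read from the library name. DA neurons and other neurons were summed per embryo where an embryo had at least 5 DA neurons, which left out 5 *Eed-cKO* embryos with 1 to 4 each. Genes with at least 15 UMIs over the DA sums, and at least 2 in 1 of these, were tested with edgeR 4.0.16 in R 4.3.3 (robust quasi-likelihood, TMM, Benjamini-Hochberg). Both sums of an embryo come from 1 animal, so the embryo was a block between DA and other neurons. *Eed-cKO* and control DA neurons were compared without a block and, in the main fit, without a term for sex. *Fgf13* and *Klhl13* lie on the X chromosome, and how their changes depend on sex is not given here. Shares were tested with scipy 1.17.1, where an upper limit is set by 3 counts and, like each interval, speaks of counting error alone.

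Members and gene lists were chosen with earlier results of these data known. Named genes were the genes of the rule, listed genes past the threshold (up to 8 per list), and, per comparison, the 10 largest rises and falls past the threshold in which every embryo moved the same way or the genotypes did not overlap. Genes named outside that rule (*Ghrh*, *Gal*, *Gad1*, *Gad2*, *Pnoc*, *Isl1*, *Nr4a2*, *Chrnb3*, *Lmx1a*, *Prlr*, *Vax2*, *Scg2*, *Rps13*, *Resp18*, *Cpne4*, *Enc1*, *Rbfox1*, *Zfhx3*, marker genes given at 0, genes called only as a difference between genotypes and those found only without midbrain-factor cells) were chosen after their values were seen. Tested on simulated data, the fit recovered 85% of 4-fold and 96% of 8-fold changes in control among 9265 genes (3.21% false calls). Between genotypes it recovered 48% and 71% (2.46% false calls). The simulated counts had the same dispersion for all genes and no differences between embryos, so these rates may not hold for the real sums. DESeq2 1.42.0 and limma 3.58.1 served as alternatives. *Hoxa6*, *Hoxa13*, *Hoxc11*, *Hoxd1*, *Hoxd12*, *Drd2*, *Otp* and *Lmx1b* were not analysed here, and values of some other listed genes are not reported here.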

Additional observations from a re-analysis of the deposited data

Results flagged for a closer look

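In 17 of 130 groups of 4 to 9 embryos that were screened (13.1%), a single embryo lay far from the rest in its DA neurons. The critical value used was set for about 1 in 20 groups, a rate not shown to hold for counts this low. The share flagged can therefore not be set against chance. Each flag for *En1*, *Foxa1* and *Foxa2* in *Eed-cKO*, and for *Shox2* and *Crym* in control, rests on 1 UMI. In *Eed-cKO* the embryo was F0582_E7 for *Slc6a3* (16.03 per 1000000 UMIs) and *Id2* (0 CPM), and F0589_E1 for *En1* (16.1 CPM), *Foxa1* (16.1), *Penk* (32.3) and *Shox2* (194). It was F0588_E7 for *Foxa2* (9.58), *Sim1* (153) and *Fosb* (163). In control the embryo was F4530_E2 for *Pitx3* (71.4 CPM) and *Shox2* (11.9), F4520_E2 for *Klhl1* (300.03), F4690_E3 for *Sim1* (55.7) and F4650_E1 for *Fosb* (11.3). It was F4650_E2, the embryo of the library with most cells, for *Foxj1* (146 CPM), *Nrgn* (53.3) and *Crym* (3.56).

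The change between DA and other neurons differed between the genotypes for 17 genes by edgeR's quasi-likelihood test. Adjusted p was 5.67e-12 for *En1*, 6.71e-06 for *Cartpt*, 1.89e-05 for *Foxa1*, 1.89e-05 for *Fgf13*, 2.82e-05 for *En2*, 0.00041 for *Ntn1*, 0.00117 for *Calcr*, 0.00582 for *Plcxd3*, 0.00844 for *Klhl13* and 0.00844 for *Scn9a*. It was 0.0106 for *Klhl1*, 0.0159 for *Cnr1*, 0.0265 for *Fam19a2*, 0.0372 for *Nnat*, 0.0372 for *Slc10a4*, 0.0372 for *Atp2c1* and 0.042 for *S100a6*. Of these, *Cartpt* and *Scn9a* passed when the cells with 2 or more midbrain factors were left out. *S100a6* and *En2* had no UMI in the *Eed-cKO* DA sums.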

How the results depend on the processing

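The lower share of DA neurons in *Eed-cKO* kept its direction and stayed past 0.05 under each alternative, with −1.32 to −0.918 points over the fits that left out an embryo. The share with both *Slc17a6* and *Slc32a1* ranged from −2.45 to 21.4 points, the lowest without F0589_E1. Counts of calls moved more. For DA against other neurons in control (137), DA against other neurons in *Eed-cKO* (39), the difference (17) and *Eed-cKO* against control (32), in that order, edgeR's own expression filter gave 50, 20, 8 and 18 calls and no filter 231, 90, 33 and 68. DESeq2 gave 77, 25, 8 and 15, DA neurons with 2 or more UMIs of *Th* 91, 18, 6 and 15, and cells thinned to 2000 UMIs 36, 5, 2 and 7. For the last 3 comparisons voom gave 11, 6 and 8, TREAT 4, 6 and 7, and embryos with any DA neuron 127, 40 and 66. Without doublets the difference called 11. Without midbrain-factor cells the counts were 74 in control, 2 for the difference and 7 for *Eed-cKO* against control. Leaving out an embryo gave 88 to 141, 20 to 56, 10 to 26 and 15 to 37, with 88 without F4530_E2, 20 without F0582_E7, 10 without F0588_E7 and 15 without F0589_E1. Signs turned for the difference of *Slc10a4* (0.51) without midbrain-factor cells, and for *Gpx3* in *Eed-cKO* (−0.0767) when thinned. Of 85 results for single genes, 42 kept their call in all leave-one-out fits and 16 in every alternative. The causes of these moves were not tested. Alternatives without midbrain-factor cells, without *Ddc* as a partner and without the library with most cells were chosen after seeing the data. At 1 to 8 DA neurons per *Eed-cKO* embryo, depth limits the precision of each *Eed-cKO* value. No paired analysis was possible because replicate numbers do not link embryos of the genotypes.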
